A study of Drosophila melanogaster with 11 samples.

Results

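The pickpocket (ppk) genes of Drosophila were followed through embryogenesis in bulk mRNA-seq of whole embryos. All genes whose FlyBase symbol starts with ppk were taken, together with ripped pocket (rpk), which gave 30 members of the 17753 genes in each library. Symbols were found for 17625 of these genes in the annotation. Nach, also called ppk4, carries a symbol of its own and was described beside the members but not counted among them. Wild-type Oregon-R embryos, which carried no transgene and received no treatment, were collected in 4 windows after egg deposition. The windows were 2–4 h with 3 libraries, 14–14.5 h with 2, 14–17 h with 4 and 17–17.5 h with 2, which makes 11 libraries. RNA with a polyA tail was sequenced, and the replicates are described as separate collections on different days.

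Pickpocket proteins belong to the DEG/ENaC family of sodium channels, which also holds the epithelial sodium channels of vertebrates. A subunit crosses the membrane at both ends of a large extracellular loop rich in cysteines, and several subunits join to form a channel that conducts sodium and is blocked by amiloride. In the fly, members are known for roles in the sensory neurons of the body wall, in the sensing of water, salt and pheromones, at the neuromuscular synapse, and in clearing liquid from the tracheal tubes before the larva breathes air.

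Depth ranged from 14472809 to 38904916 estimated counts per library, and the lowest was replicate 2 at 2–4 h. The floor of 3 counts that was used for detection was worth 0.0771 to 0.207 CPM (counts scaled to the total of the library). Genes of the early segmented embryo (ftz, eve, sna, twi and eya) summed to 409–497 TPM, a level scaled to gene length and library, at 2–4 h and to 35.3–58.8 TPM in the later windows, so the early libraries stood apart as their labels say. The mitochondrial large ribosomal RNA took 10.02% to 14.8% of all TPM at 2–4 h and 14–17 h and 5.89% to 6.49% in the narrow windows, a difference that enters every TPM value. In RNA from whole embryos, a change in the number of cells that use a gene and a change in its RNA per cell cannot be told apart.

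The members lay on every large chromosome arm, with 9 on 2L, 6 on 2R, 3 on 3L, 9 on 3R and 3 on X. Every deposited gene length equalled the gene from start to end, introns included, from 1509 to 14189 bp, so TPM is stated per length of span unless exonic length is named. The span of 18 members overlapped no other annotated gene, 6 shared part of it and 6 shared all of it. The sources do not describe a step that keeps the strand of the RNA, so reads of a member and of an antisense gene over the same bases cannot be told apart, and Kallisto divided them by estimate. Counts were whole in all libraries for 21 members, including all 18 without an overlap.

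With at least 3 estimated counts in every library taken as detection, 16 of 30 members were detected in the 2–4 h window, 24 in that of 14–14.5 h, 24 in that of 14–17 h and 26 in that of 17–17.5 h. Of all genes, 56.4%, 65.5%, 64.9% and 65.4% were detected in these windows. Detection in all windows was seen for 15 members. Another 7 (ppk7, ppk9, ppk11, ppk16, ppk17, ppk23 and ppk26) were detected in all later windows and not at 2–4 h. Among them, ppk11 and ppk16 are a single locus as measured here. In the windows in order, 9, 8, 8 and 9 of 30 members had a mean of at least 1 TPM. Of all genes, 48.4%, 59.2%, 60.6% and 59.0% did. A mean of at least 1 TPM in at least 1 window was reached by 15 members. Of these only rpk passed 1 TPM in all windows. At 2–4 h and in no later window, 5 members passed it (ppk3, ppk12, ppk19, ppk20 and ppk31). In a later window and not at 2–4 h, 6 members passed it (ppk, ppk17, ppk18, ppk23, ppk26 and ppk30), and ppk6, ppk28 and ppk29 did so at 2–4 h and again later. For these courses over several windows the share of all genes was not counted, so whether the family differs from other genes in them is not known.

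The summed TPM of the family was 204 ± 19.4 (SD, n = 3) in the 2–4 h window, 42.0 ± 3.36 (n = 2) in that of 14–14.5 h, 61.0 ± 4.71 (n = 4) in that of 14–17 h and 52.2 ± 1.31 (n = 2) in that of 17–17.5 h. Without rpk, the same sums were 18.5, 37.5, 50.9 and 49.0 TPM, so a single gene carried the early total. The share of rpk in the family TPM was 90.8% at 2–4 h and 10.7%, 16.5% and 6.0% in the later windows. The share of ppk, ppk17, ppk18 and ppk26 together went the other way, from 0.277% at 2–4 h to 61.1%, 61.6% and 66.3%.

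**Figure D1:**
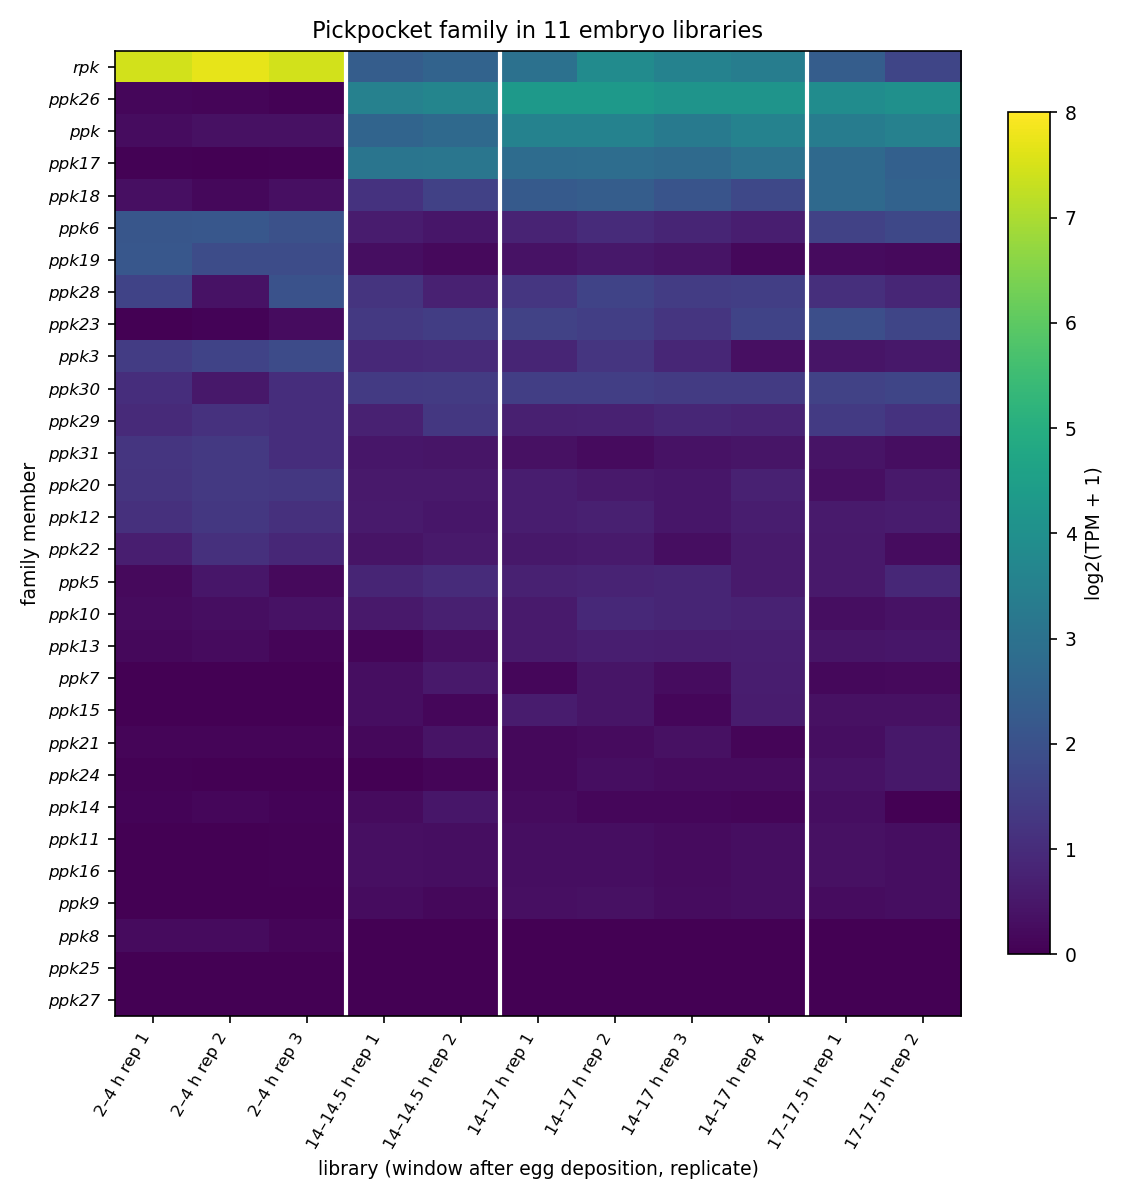
Level of each of the 30 members (rows, ordered by highest TPM) in each of the 11 libraries (columns, by window and replicate), as the colour of log2(TPM + 1). The row of rpk is bright at 2–4 h only, ppk26, ppk, ppk17 and ppk18 are dark at 2–4 h and lighter in all later libraries, and most other rows stay near 0.

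The study's own pair of windows for late induction, 2–4 h and 14–17 h, was tested with edgeR's quasi-likelihood test on the estimated counts over all genes. Of the 23 members that passed the filter on low counts, 12 rose and 10 fell towards 14–17 h, with Benjamini-Hochberg adjusted p-values under 0.05, and ppk28 was not called. The higher members include ppk11 and ppk16, a single locus as measured here, and with both summed to 1 row 11 rose. These counts stand against a background in which 48.2% of the 11623 genes tested were higher and 42.4% lower, so the share of members called is near that of all genes. The TPM ranges of the windows did not overlap for 22 of the 23 members and for 90.8% of all genes tested. The median log2 fold change was 0.91 over the tested members and 0.19 over all genes tested. Among the 13 tested members free of overlap with another gene, 8 were higher and 5 lower. The 7 members under the filter were ppk7, ppk14, ppk15, ppk21, ppk24, ppk25 and ppk27. Testing without the filter on low counts added ppk7, ppk15 and ppk24 to the higher members.

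The narrow windows, 14–14.5 h and 17–17.5 h, gave the change within late embryogenesis from separate libraries. Of 20 members tested, 6 were higher at 17–17.5 h and none was lower by edgeR's quasi-likelihood test at an adjusted p under 0.05, against 32.0% higher and 31.5% lower among 11267 genes tested. At an unadjusted p under 0.05, 9 members passed, of which 2 were lower. By the DESeq2 Wald test 5 were higher and 0 lower, and the share of all genes was not counted for that test. The SEs of the tested members ran from 0.11 to 0.88, so falls of members with few counts could go uncalled. Among the uncalled were ppk3 at −0.96 (SE 0.36) and ppk10 at −0.76 (SE 0.44). The 20 include ppk11 and ppk16, a single locus as measured here. TPM ranges did not overlap for 11 of the 20 members and for 86.1% of all genes tested. The median log2 fold change was 0.36 for the tested members and −0.04 for all genes tested. On the TPM scale the median of all genes was −0.25 in this comparison and 0.12 between 2–4 h and 14–17 h, where the fit gave 0.19. Fold changes below are of the later over the earlier window, from the fit, and are to be read relative to its medians.

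**Figure D2:**
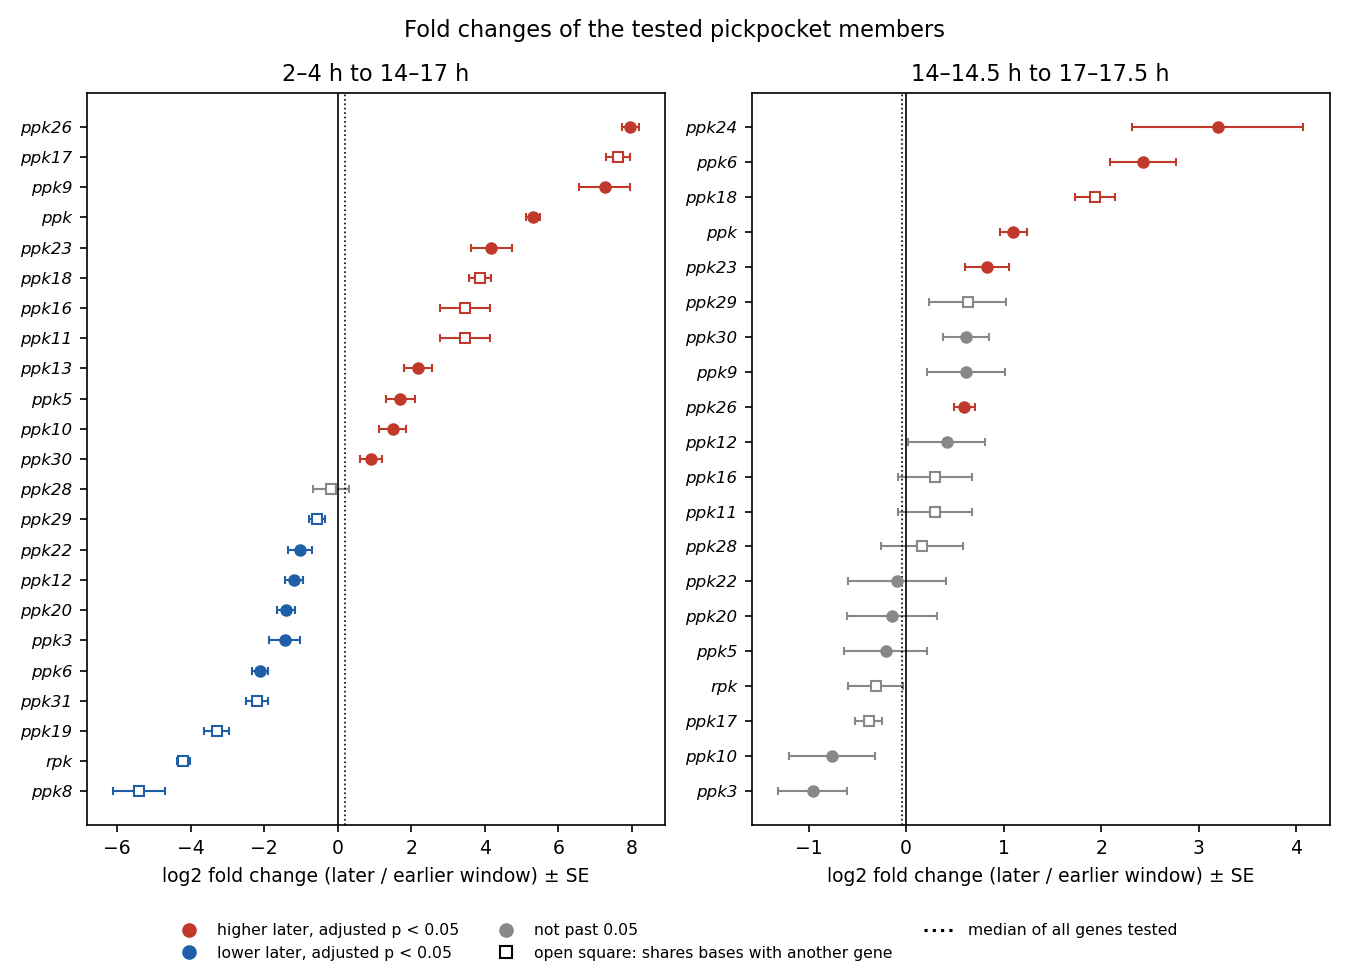
Log2 fold change ± SE (x axis) of each tested member (y axis) between 2–4 h and 14–17 h (left, 23 members) and from 14–14.5 h to 17–17.5 h (right, 20 members), from the edgeR fit. Red points are higher and blue points lower in the later window at an adjusted p under 0.05, grey points were not called, open squares share bases with another gene, and the dotted line is the median of all genes tested. On the left 12 members lie to the right of 0 in red and 10 to its left in blue, while the right panel has 6 in red and none in blue.

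Ripped pocket (rpk, FBgn0022981, 3R) encodes a subunit known from the ovary and the early embryo. It had 173, 209 and 174 TPM at 2–4 h, 4.15 and 4.87 in the libraries of 14–14.5 h, 6.996, 13.4, 10.6 and 9.56 in those of 14–17 h, and 4.11 and 2.18 in those of 17–17.5 h. All early libraries lay above every later one by more than 10 times, and rpk had the highest level of the family at 2–4 h, with 185 ± 20.3 TPM (SD, n = 3) against 3.32 TPM for the next member, ppk6. Between 2–4 h and 14–17 h rpk fell by 4.20 on the log2 scale (SE 0.18, adjusted p = 6.4e-09, edgeR), 18.4-fold lower, and the value was between −4.32 and −4.12 when each library was left out in turn. Later RNA was still counted, with 82 to 448 estimated counts per library. The narrow windows differed by −0.31 (SE 0.28, adjusted p = 0.37, edgeR), and without replicate 1 at 17–17.5 h it was −0.76 (adjusted p = 0.015). For rpk, every library of 14–17 h lay above those of both narrow windows. The same held for the maternal genes bcd and osk, and not for nos, vas and gcl. Means at 14–17 h, 14–14.5 h and 17–17.5 h were 21.12, 5.49 and 8.67 TPM for bcd and 2.57, 0.46 and 0.81 TPM for osk. The part of maternal RNA in the later levels of rpk was not tested. An antisense RNA, asRNA:CR44155, covered 1810 bp of the rpk span. It had 67.9, 23.8 and 65.2 TPM at 2–4 h and at most 1.93 TPM later, and its part in the counts of rpk was not tested.

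Pickpocket (ppk) and ppk26, also called balboa, are known from the class IV multidendritic neurons of the larval body wall, where both are needed for the response to harsh touch. In ppk (FBgn0020258, 2L:14378218-14381172, minus strand, dm6) the libraries had 0.190, 0.282 and 0.291 TPM at 2–4 h, 4.93 and 5.72 in the libraries of 14–14.5 h, 10.8, 10.6, 8.66 and 10.7 in those of 14–17 h, and 9.30 and 10.3 in those of 17–17.5 h. The early libraries held 5 to 11 reads each, below every later library, and the first late window lay below the other late windows without overlap. The gene rose by a log2 fold change of 5.31 (SE 0.19, adjusted p = 2.8e-09, edgeR) between 2–4 h and 14–17 h and by 1.10 (SE 0.14, adjusted p = 0.00078) between the narrow windows. In ppk26 (3L:7456149-7458608, plus strand) the libraries had 0.0991, 0.0688 and 0.0323 TPM at 2–4 h, 10.5 and 11.6 in the libraries of 14–14.5 h, 18.5, 18.6, 16.8 and 16.8 in those of 14–17 h, and 13.8 and 15.03 in those of 17–17.5 h. Per length of span, it had the highest TPM of the family in every later window, with 17.7 ± 1.01 (SD, n = 4) at 14–17 h, and its windows did not overlap. Its log2 fold change was 7.95 (SE 0.23, adjusted p = 7.9e-10, edgeR) between 2–4 h and 14–17 h. The early libraries held 5 reads in all, so the ratio of pooled counts, 260, had a 95% counting interval of 111 to 801. The later narrow window lay higher by 0.60 for ppk26 (SE 0.11, adjusted p = 0.0044, edgeR).

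Neither ppk nor ppk26 overlaps another gene, and both kept their calls under every alternative tried. Their proportions shifted over the late windows. The counts of ppk26 were 171% ± 6.41 (SD, n = 2) of those of ppk at 14–14.5 h, 143% ± 12.4 (n = 4) at 14–17 h and 121% ± 1.86 (n = 2) at 17–17.5 h, with no overlap between the narrow windows; this ratio was not tested. Over the same windows the summed TPM of the sensory neuron and support cell markers nompA, nompC, iav, kn and Poxn was 1.87–2.10, 36.2–38.3, 32.4–41.5 and 22.3–22.6, with Poxn listed at 0 in every library. From 14–14.5 h to 17–17.5 h nompA, which made up most of the later sums, fell from a mean of 27.9 to 14.2 TPM. The mean of kn fell from 4.84 to 3.04 TPM, while that of nompC rose from 3.42 to 4.05 TPM. The change of iav was not called (adjusted p = 0.25, edgeR). The neuron markers elav, nSyb, Syt1, futsch and brp summed to 32.1–32.7, 283–299, 179–211 and 319 TPM. Most of the early sum was elav, with a mean of 30.5 TPM. From 14–14.5 h to 17–17.5 h the mean of elav fell from 55.8 to 28.5 TPM, and brp had 34.4 and 34.0 TPM. The means of nSyb, Syt1 and futsch rose, from 155 to 200, 40.4 to 48.9 and 5.59 to 7.54 TPM. The part of the number of neurons in the rise of ppk and ppk26 was not tested.

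Mechanical nociception has also been tied to ppk30. Its libraries had 1.05, 0.438 and 1.06 TPM at 2–4 h, 1.54 and 1.63 in the libraries of 14–14.5 h, 1.78, 1.78, 1.64 and 1.64 in those of 14–17 h, and 1.99 and 2.20 in those of 17–17.5 h. All early libraries lay below all later ones, and replicate 2 was the lowest. The log2 fold change was 0.91 (SE 0.29, adjusted p = 0.014, edgeR) between 2–4 h and 14–17 h and 0.61 (SE 0.23, adjusted p = 0.063) between the narrow windows, which was not called.

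**Figure D3:**
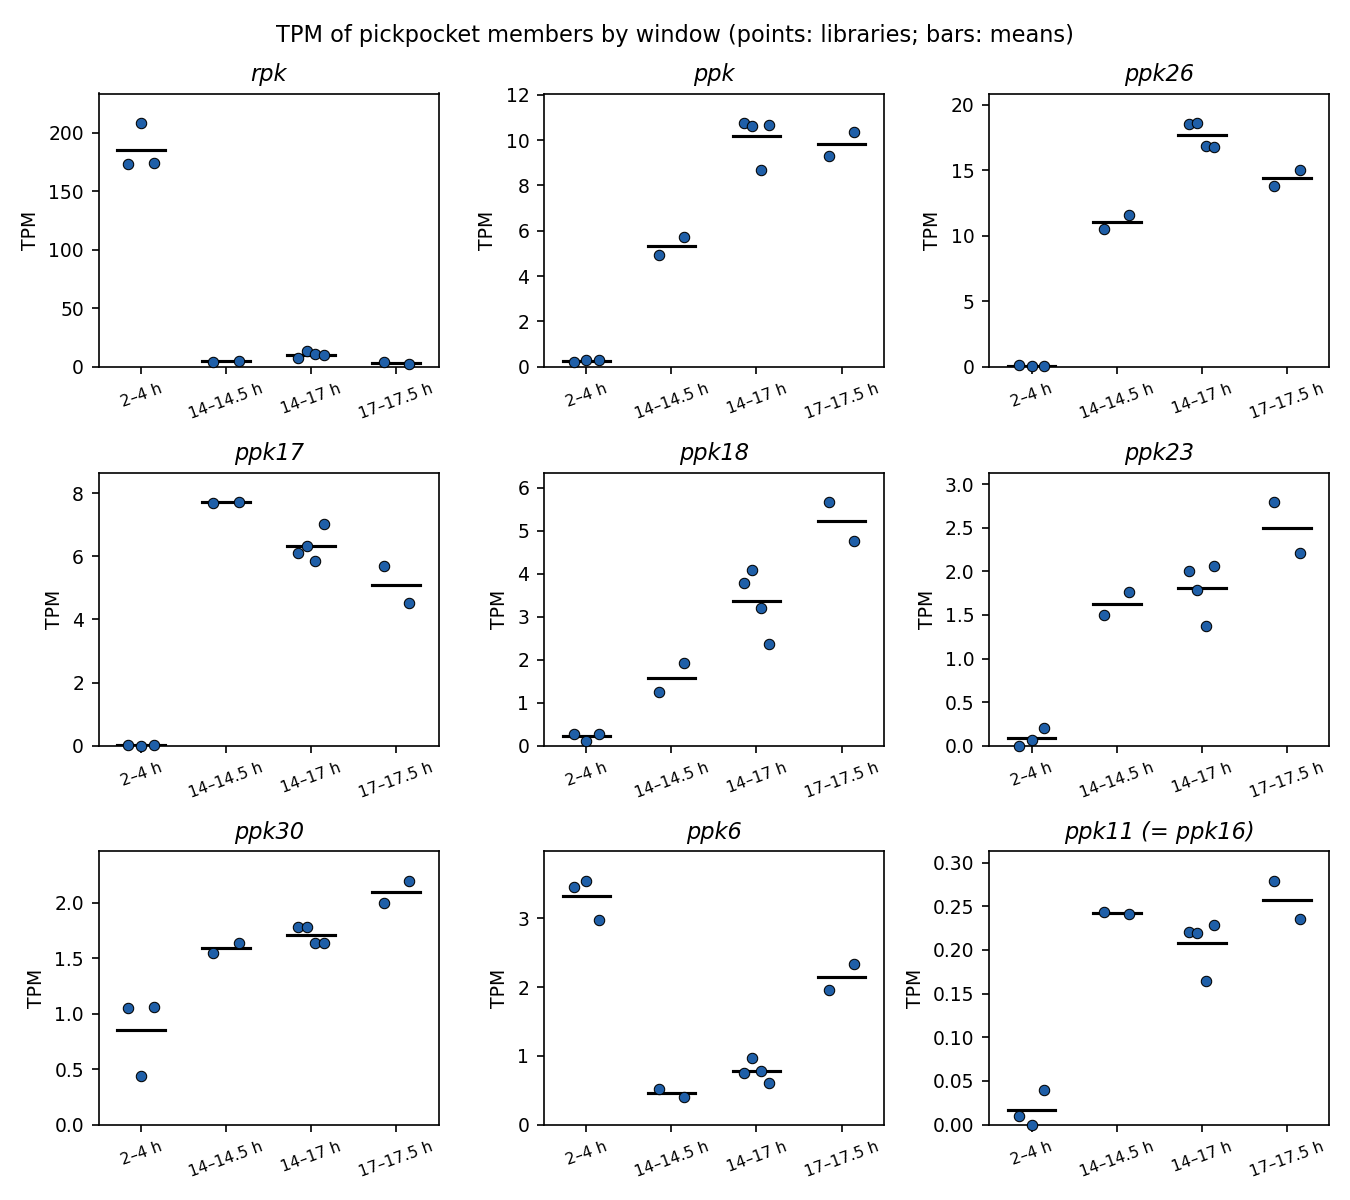
TPM (y axis, linear from 0, with its own range in each panel) of 9 members in the 4 windows (x axis), with a point for each library and a bar for the mean. The points of rpk are high at 2–4 h alone, ppk, ppk26, ppk17, ppk18 and ppk23 start near 0, and ppk6 is high at 2–4 h, low at 14–14.5 h and 14–17 h and high again at 17–17.5 h.

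The member ppk17 (2L:16758184-16760554, minus strand) had 0.0344, 0 and 0.0336 TPM at 2–4 h, 7.70 and 7.73 in the libraries of 14–14.5 h, 6.10, 6.32, 5.86 and 7.02 in those of 14–17 h, and 5.70 and 4.51 in those of 17–17.5 h. It was highest in the first late window, above every other library, and lowest of the late windows at 17–17.5 h. Between 2–4 h and 14–17 h it rose by 7.62 (log2, SE 0.34, adjusted p = 9.2e-09, edgeR). With 2 reads in all at 2–4 h, the ratio of pooled counts was 224 with a 95% counting interval of 61.7 to 1850. For the narrow windows the log2 fold change was −0.39 (SE 0.14, adjusted p = 0.056, edgeR), and without replicate 1 at 17–17.5 h it was −0.49 (adjusted p = 0.024). A stretch of 100 bp is shared with the antisense gene yellow-b, which had 0.166–0.378 TPM at 2–4 h and 34.2–65.0 TPM later, and the counts of ppk17 were whole in all libraries.

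The span of ppk18 (2L:9765357-9770996, minus strand) is 5640 bp with 1662 exonic bp, and it holds CG4017 and CG17633 on the opposite strand, mostly within introns. Its libraries had 0.265, 0.117 and 0.259 TPM at 2–4 h, 1.24 and 1.92 in the libraries of 14–14.5 h, 3.80, 4.10, 3.20 and 2.36 in those of 14–17 h, and 5.68 and 4.77 in those of 17–17.5 h. In the order given, each window lay above the one before without overlap. The log2 fold change was 3.86 (SE 0.29, adjusted p = 5.3e-07, edgeR) between 2–4 h and 14–17 h and 1.93 (SE 0.21, adjusted p = 0.00042) between the narrow windows. CG17633 moved with it, at 0.0595, 0 and 0.312 TPM at 2–4 h, 20.5 and 22.4 in the libraries of 14–14.5 h, 96.0, 105, 114.8 and 79.9 in those of 14–17 h, and 126 and 118 in those of 17–17.5 h. CG4017 had 0.0883–0.728 TPM at 2–4 h, 5.90 and 6.63 at 14–14.5 h, and 8.98–9.88 at 14–17 h, and it was listed at 0 in both libraries of 17–17.5 h, where ppk18 was highest. The counts of ppk18 were not whole in any of the 11 libraries, and they amounted to 34.6%, 16.1% and 20.2% of those of CG17633 in the later windows. How many of them came from CG17633 was not tested. Per exonic length, ppk18 had 14.6 and 12.3 TPM at 17–17.5 h against 11.4 and 12.5 for ppk26, so the order of their means depended on the length used and the libraries overlapped.

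Clearing of liquid from the tracheae is the known embryonic and larval role of ppk11, together with Nach, and ppk11 has in addition been tied to salt taste in the larva. With ppk16, it is also known from the homeostatic control of transmitter release at the neuromuscular junction. Both genes have the same span, 2L:9771155-9775030 on the minus strand in dm6, and Kallisto gave each the same count in every library. The values therefore describe a single locus, and neither gene could be measured apart from the other. Each was given 0.5, 0 and 2 estimated counts at 2–4 h, 12.5 and 12 in the libraries of 14–14.5 h, 13, 10, 8 and 12.5 in those of 14–17 h, and 14.5 and 12 in those of 17–17.5 h. In TPM these were 0.0102, 0 and 0.0397, then 0.243 and 0.241, then 0.220, 0.220, 0.165 and 0.228, then 0.279 and 0.235. All later libraries lay above the early ones. Those of 14–14.5 h fell within the range of those of 17–17.5 h, and those of 14–17 h lay just below both.

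Between 2–4 h and 14–17 h the log2 fold change of ppk11 and of ppk16 was 3.46 (SE 0.67, adjusted p = 0.00067, edgeR), and it was 2.84 without replicate 1 at 2–4 h. Without replicate 3 of that window every early count left was 0 after rounding, so the fitted 6.28 is not a measured size. With both summed to 1 row before the fit, the log2 fold change was 3.28 (SE 0.52, adjusted p = 0.00016). Without replicate 1, 2 or 4 of 14–17 h the locus fell under the filter on low counts and was not tested. For the summed locus, with 5 reads early and 87 at 14–17 h, the ratio of pooled counts was 10.002 with a 95% counting interval of 4.13 to 31.6. Across the narrow windows the change was 0.30 (SE 0.38, adjusted p = 0.52, edgeR), and with 49 and 53 reads at the summed locus the ratio of pooled counts was 1.11 with an interval of 0.741 to 1.68, so a change of either sign within that range was not detectable at this depth.

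Nach had 0 reads in all libraries at 2–4 h, 7 and 3 in the libraries of 14–14.5 h, 3, 3, 4 and 3 in those of 14–17 h, and 5 and 2 in those of 17–17.5 h, at 0.0877 to 0.304 TPM later. It did not pass the filter, and its mean of 0.0989 CPM at 14–17 h was under the early floor of 0.133, so no fold change was given. Of the other genes with a role in clearing the tracheal tubes or their matrix, 14 were listed beside Nach, and 13 of them were matched and tested. Between 2–4 h and 14–17 h, 11 of these were higher and 2 lower, against 48.2% higher and 42.4% lower among all genes tested, with a median log2 fold change of 1.21 against 0.19. The DESeq2 Wald test also took in Nach and called it higher, with 12 higher and 2 lower of 14 tested and no share of all genes counted. The higher ones included serp and verm, chitin deacetylases of the tube matrix, at 7.80 (SE 0.46, adjusted p = 7.3e-08, edgeR) and 7.32 (SE 0.52, adjusted p = 3.2e-07), and emp, a scavenger receptor, at 6.57. Chc, the clathrin heavy chain, was at −0.41 and crb, an apical polarity gene, at −1.49. Between the narrow windows 1 was higher and 9 were lower, against 32.0% and 31.5% of all genes tested, with a median of −0.37 against −0.04, and serp, verm and emp were among the lower ones at −2.45, −1.97 and −1.75. Atpalpha, the catalytic subunit of the sodium pump, was the higher one at 0.53. The tracheal markers btl, trh, Gasp, Osi20, serp and verm, of which the last pair is also in that list, summed to 3477–3600 TPM at 14–14.5 h and 226–254 TPM at 17–17.5 h. Whether the locus of ppk11 and ppk16 differed from these genes was not tested.

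In the gene ppk19, known with ppk11 from the sensing of salt, the libraries had 3.49, 2.60 and 2.66 TPM at 2–4 h, 0.228 and 0.143 in the libraries of 14–14.5 h, 0.321, 0.416, 0.341 and 0.129 in those of 14–17 h, and 0.181 and 0.139 in those of 17–17.5 h. All early libraries were above all later ones. It fell by 3.30 on the log2 scale (SE 0.33, adjusted p = 5.3e-06, edgeR) between 2–4 h and 14–17 h and did not pass the filter in the narrow windows, where it had 3.03 to 5.01 counts per library. The last 217 bp of ppk19 are shared with Bub3, a checkpoint gene on the opposite strand, which had 547, 511 and 565 TPM at 2–4 h and 37.9–76.9 later. The counts of ppk19 amounted to 0.696%, 0.380%, 0.560% and 0.483% of those of Bub3 in the windows in order, and they were not whole in any library. On the other side, 121 bp away on the same strand, Obp99a had a mean of 608 TPM at 2–4 h. The part of these neighbours in the early counts of ppk19 was not tested.

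The gene ppk28 is needed for the taste of water. Its whole span of 2448 bp lies within an antisense RNA, asRNA:CR44053. The libraries of ppk28 had 2.08, 0.303 and 3.07 TPM at 2–4 h, 1.31 and 0.654 in the libraries of 14–14.5 h, 1.42, 2.03, 1.71 and 1.78 in those of 14–17 h, and 1.09 and 0.797 in those of 17–17.5 h. The antisense RNA had 0.812, 2.32 and 0.595 TPM, then 1.46 and 2.01, then 0.761, 0.658, 0.618 and 0.913, then 2.41 and 1.96, so it was high where ppk28 was low. The share of ppk28 in the counts of both genes ran from 8.95% in replicate 2 at 2–4 h to 79.6% in replicate 3 at 2–4 h. Their summed counts varied less, at 3.40 ± 0.335 CPM (SD, n = 3) at 2–4 h, 3.06 ± 0.0543 (n = 2) in the 14–14.5 h window, 2.57 ± 0.246 (n = 4) in that of 14–17 h and 3.75 ± 0.607 (n = 2) in that of 17–17.5 h. The part of the division of reads in the level of ppk28 was not tested. Between 2–4 h and 14–17 h the log2 fold change of ppk28 was −0.18 (SE 0.50, adjusted p = 0.73, edgeR), and without replicate 2 at 2–4 h it was −0.63 (adjusted p = 0.03). Between the narrow windows it was 0.16 (SE 0.42, adjusted p = 0.76).

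**Figure D4:**
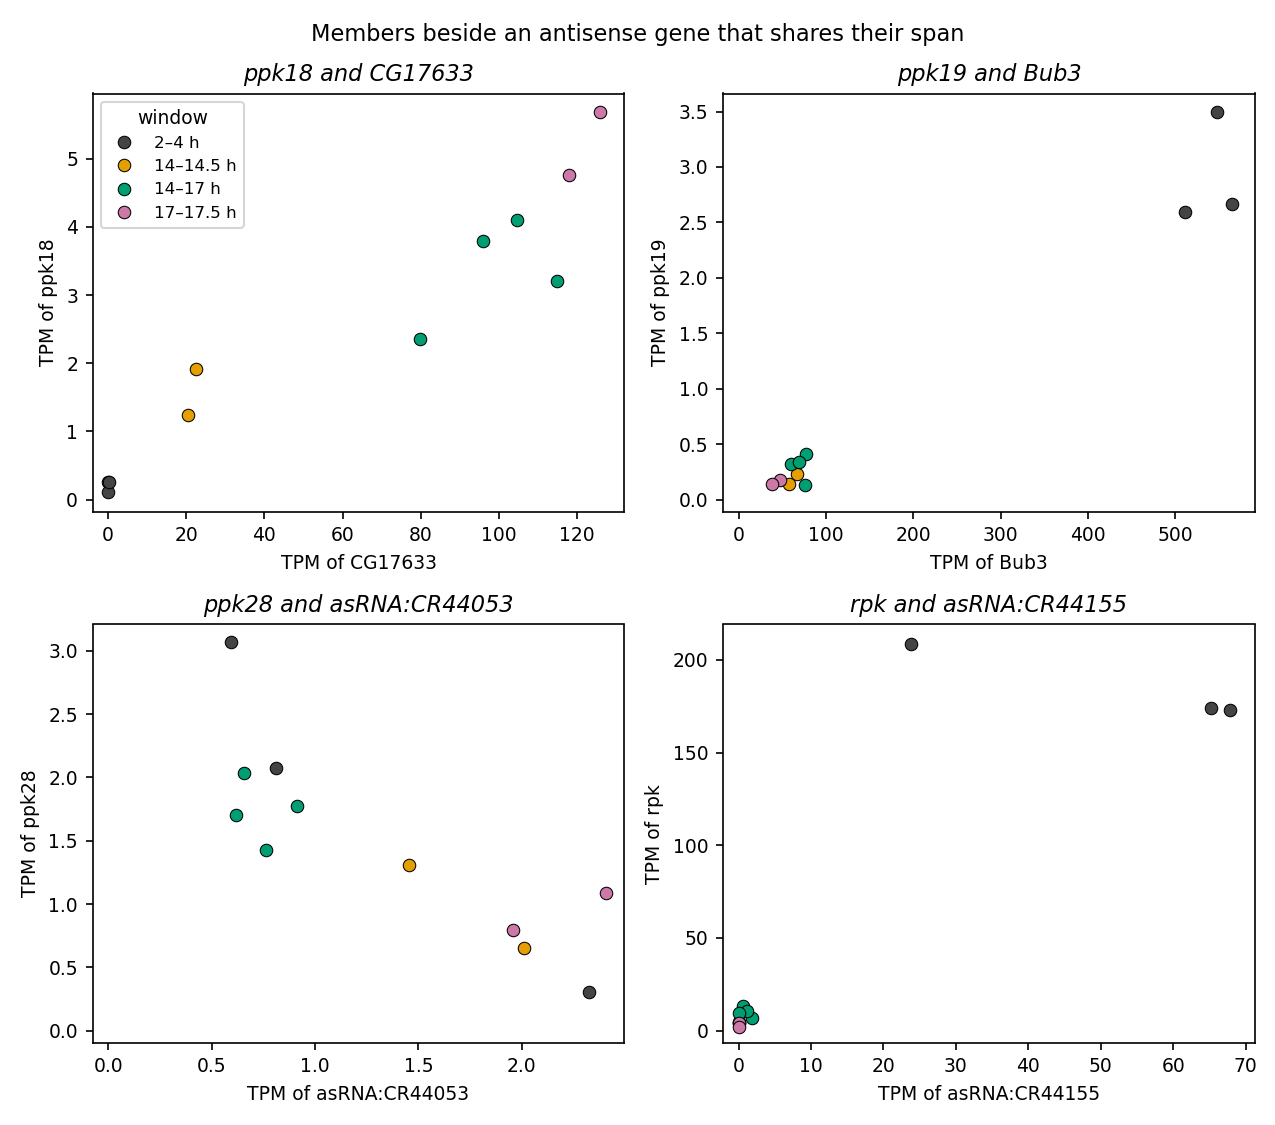
TPM of a member (y axis) against TPM of an antisense gene that shares bases with it (x axis), with a point for each of the 11 libraries coloured by window. The points of ppk18 climb with those of CG17633 from 2–4 h to 17–17.5 h, those of ppk19 and of rpk are high with Bub3 and asRNA:CR44155 at 2–4 h only, and those of ppk28 fall as asRNA:CR44053 rises.

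The pheromone-sensing members ppk23, ppk25 and ppk29 are known from taste neurons of the adult fly. In ppk23 (X:17566552-17569228, minus strand) the libraries had 0, 0.0627 and 0.206 TPM at 2–4 h, 1.4997 and 1.76 in the libraries of 14–14.5 h, 2.01, 1.79, 1.38 and 2.06 in those of 14–17 h, and 2.80 and 2.21 in those of 17–17.5 h. RNA was thus counted in every late embryo library, from 45 to 98 reads each, and at 2–4 h replicate 3 held 7 of the 8 reads. Its log2 fold change between 2–4 h and 14–17 h came to 4.18 (SE 0.56, adjusted p = 4.6e-05, edgeR), and it was 6.18 without replicate 3 at 2–4 h and 3.51 without replicate 1. Between the narrow windows it was 0.83 (SE 0.22, adjusted p = 0.02, edgeR). That call was lost by the DESeq2 Wald test (adjusted p = 0.056), with all 11 libraries in the fit (0.13), and without replicate 1 of 14–14.5 h (0.12), replicate 2 of 14–14.5 h (0.073) or replicate 1 of 17–17.5 h (0.059). The gene ppk25 lies wholly within mim and CheB42c and was listed at 0 in every library, as was ppk27, which lies wholly within CG32264. A 0 for a nested gene can be a failed division of reads, so it is given as listed.

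In ppk29 the libraries had 0.933, 1.22 and 1.07 TPM at 2–4 h, 0.648 and 1.48 in the libraries of 14–14.5 h, 0.626, 0.681, 0.83 and 0.751 in those of 14–17 h, and 1.57 and 1.25 in those of 17–17.5 h. The range of the 14–14.5 h libraries overlapped those of both other late windows, which did not overlap each other. The log2 fold change was −0.57 (SE 0.21, adjusted p = 0.026, edgeR) between 2–4 h and 14–17 h. It was lost by the DESeq2 Wald test (adjusted p = 0.14), with RLE factors (0.06), with the replicate number as a block (0.068), and without replicate 2 or 3 of 2–4 h (0.053 and 0.066) or replicate 1 or 2 of 14–17 h (0.051 and 0.068). Between the narrow windows it was 0.63 (SE 0.40, adjusted p = 0.21), and 1.33 (adjusted p = 0.039) without replicate 2 of 14–14.5 h. The span of ppk29 shares 119 bp with sei, a potassium channel gene on the opposite strand at 4.18–4.80 TPM early and 10.3–15.1 TPM later, and 1832 bp with CG13563, which stayed at or below 0.619 TPM.

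A course with a low in the middle was seen in ppk6, a member free of overlap. It had 3.45, 3.55 and 2.98 TPM at 2–4 h, 0.515 and 0.400 in the libraries of 14–14.5 h, 0.747, 0.969, 0.773 and 0.605 in those of 14–17 h, and 1.95 and 2.33 in those of 17–17.5 h. None of these windows overlapped. The log2 fold change was −2.11 (SE 0.22, adjusted p = 6.2e-06, edgeR) between 2–4 h and 14–17 h and 2.43 (SE 0.34, adjusted p = 0.0013) between the narrow windows, and both held under all alternatives. It was the only member called lower in the first comparison and higher in the second. Of the other members called lower in the first, ppk12 and ppk29 had uncalled rises of 0.41 and 0.63 in the second. There ppk8, ppk19 and ppk31 were not tested. The neighbour of ppk6, CG9864, 505 bp away on the same strand, had means of 1.46, 0.796, 4.85 and 11.2 TPM in the windows in order, and the other neighbour, Hacl, 74.3, 43.1, 48.8 and 61.5 TPM.

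The members at or above 1 TPM at 2–4 h alone were, besides ppk19, ppk3, ppk12, ppk20 and ppk31. In ppk3 the libraries had 1.69, 2.08 and 2.55 TPM at 2–4 h, 0.882 and 0.951 in the libraries of 14–14.5 h, 0.768, 1.33, 0.819 and 0.242 in those of 14–17 h, and 0.364 and 0.445 in those of 17–17.5 h. Early libraries lay above all others, and the spread at 14–17 h took in both narrow windows. The log2 fold changes were −1.45 (SE 0.41, adjusted p = 0.0073, edgeR) between 2–4 h and 14–17 h and −0.96 (SE 0.36, adjusted p = 0.057) between the narrow windows. The gene Gr59e, 280 bp away on the same strand, had means of 2.17, 0.839, 0.646 and 0.381 TPM beside 2.11, 0.917, 0.790 and 0.404 TPM for ppk3.

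In ppk20 the libraries had 1.28, 1.501 and 1.45 TPM at 2–4 h, 0.460 and 0.476 in the libraries of 14–14.5 h, 0.567, 0.476, 0.406 and 0.649 in those of 14–17 h, and 0.266 and 0.463 in those of 17–17.5 h. In ppk12 they had 1.14, 1.47 and 1.15 TPM at 2–4 h, 0.487 and 0.388 in the libraries of 14–14.5 h, 0.555, 0.635, 0.397 and 0.564 in those of 14–17 h, and 0.483 and 0.529 in those of 17–17.5 h. For both, every early library was above every later one, and the late windows overlapped. Their log2 fold changes between 2–4 h and 14–17 h were −1.41 (SE 0.25, adjusted p = 0.00038, edgeR) and −1.20 (SE 0.25, adjusted p = 0.001). In ppk31 the libraries had 1.38, 1.52 and 1.08 TPM at 2–4 h, 0.398 and 0.369 in the libraries of 14–14.5 h, 0.281, 0.181, 0.307 and 0.378 in those of 14–17 h, and 0.354 and 0.239 in those of 17–17.5 h. It fell by 2.20 (log2, SE 0.31, adjusted p = 6.6e-05, edgeR). Its span shares 424 bp with CG34293 on the opposite strand, which was at 2.64–3.74 TPM early and 7.10–14.8 TPM later.

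The other 15 members stayed under 1 TPM in every window. Besides ppk11 and ppk16, ppk9, ppk13, ppk5 and ppk10 were higher at 14–17 h than at 2–4 h. The gene ppk9 had 0 reads in every early library and 11 to 25 in every later one, at least 4.71-fold higher at 14–17 h against the floor of 3 counts per early library (adjusted p = 1.7e-05, edgeR). The log2 fold changes of ppk13, ppk5 and ppk10 were 2.17 (SE 0.38, adjusted p = 0.00034), 1.70 (SE 0.39, adjusted p = 0.0022) and 1.49 (SE 0.36, adjusted p = 0.0028). Also without a read at 2–4 h, ppk7 and ppk15 held 3 to 15 and 2 to 13 reads per later library and were under the filter. Their mean CPM at 14–17 h was 1.76 and 1.83 times the mean early floor of 0.133 CPM. In that window, replicate 1 of ppk7 (0.0771 CPM) and replicate 3 of ppk15 (0.0669 CPM) lay under this floor. With 2 reads in replicate 3, ppk15 was not detected at 14–17 h.

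Lower members below 1 TPM were ppk8 and ppk22. In ppk8, 30.8, 15.2 and 15.9 estimated counts at 2–4 h stood against 0 in 7 later libraries and 2.17 in replicate 4 at 14–17 h, and the ratio of pooled counts between 2–4 h and 14–17 h was 0.0202 with a 95% counting interval of 0.00220 to 0.0699. Its whole span of 14189 bp is shared with DIP-alpha, at 0.322–0.374 TPM early and 1.13–2.23 TPM later, and CG2875, at 66.7–69.2 TPM early and 13.9–23.4 TPM later, both on the opposite strand. The early counts of ppk8 were 1.45% of those of CG2875, and the part of that gene was not tested. DIP-alpha covers 13838 bp of the span, and its part in the later counts of 0 was not tested either. As for ppk25 and ppk27, such a 0 is given as listed. For ppk22 the log2 fold change was −1.03 (SE 0.33, adjusted p = 0.014, edgeR), lost by the DESeq2 Wald test (adjusted p = 0.085) and without replicate 2 of 2–4 h (0.05).

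A rise between the narrow windows was called for ppk24, which had 0 and 3 reads at 14–14.5 h and 11 and 15 at 17–17.5 h. The log2 fold change was 3.19 (SE 0.88, adjusted p = 0.021, edgeR) and the ratio of pooled counts 8.92 with a 95% counting interval of 2.73 to 46.0. Without replicate 1 of 14–14.5 h the log2 fold change was 2.24 and the call was lost. Without replicate 2 of that window the only library left there held 0 reads, so the fitted 6.79 is not a measured size. Without replicate 2 of 17–17.5 h ppk24 was not tested. Low in all windows were ppk14, with at most 8 reads in a library, and ppk21, with at most 11.

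Several members lie next to each other, and their courses differed. On 3R, from 29664779 to 29674223 in dm6, ppk21, ppk20, ppk30, Obp99a and ppk19 follow each other with 30, 271, 178 and 121 bp between them. Of these members ppk20 and ppk19 fell and ppk30 rose between 2–4 h and 14–17 h, while ppk21 was not tested. On 2L, ppk18 lies 158 bp from the shared span of ppk11 and ppk16, on the same strand, and all of them rose. On the same arm ppk7 and ppk14 stand 624 bp apart on opposite strands, and both were under the filter.

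Other channels and factors of the body wall sensory neurons were set beside ppk, ppk26 and ppk30. Of the 15 listed, 14 were matched and tested, and nompA, nompC, iav and kn are also among the markers above. Between 2–4 h and 14–17 h, 10 were higher, 0 were lower and 4 were not called, against 48.2% higher and 42.4% lower among all genes tested, with a median log2 fold change of 2.40 against 0.19. Among them were pain, a channel of heat and harsh touch, at 7.51 (SE 0.22, adjusted p = 9.5e-10, edgeR), nompC, the touch channel of the gentle-touch neurons, at 5.09 (SE 0.16, adjusted p = 1.2e-09), and TrpA1 at 4.99. In the narrow windows 6 were higher and 4 lower by edgeR and 3 higher and 4 lower by the DESeq2 Wald test, against 32.0% and 31.5% of all genes tested by edgeR. The median was 0.06, beside log2 fold changes of 1.10 for ppk and 0.60 for ppk26. Piezo, a mechanically gated channel of the same neurons, had the largest rise of the list there at 0.92 (SE 0.07, adjusted p = 9.5e-05), and kn, the transcription factor that specifies class IV neurons, was lower at −0.46 (SE 0.06, adjusted p = 0.00096).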

How the data were processed

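PolyA mRNA-seq of whole Oregon-R embryos was analysed for 11 libraries, grouped by their labels. The authors deposited an estimated count and a TPM value for each gene and library, made with Kallisto (version not given in the sources used here) on dm6 from reads that the methods give as trimmed to 50 bases. CASAVA 1.8.2 stands in the submitters' processing notes. The deposited length and effective length, in bases and used as another kind of value, equalled the gene span for 17502 of 17625 annotated genes (Ensembl release 115), with the effective length 199 bp shorter. Spans, overlaps and symbols were read from that annotation.

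Estimated counts were rounded and tested over all genes with edgeR 4.0.16 (filterByExpr, TMM factors, quasi-likelihood F-test, two-sided, Benjamini-Hochberg over all genes, R 4.3.3). SEs were obtained as the size of the fitted log2 fold change over the root of its F statistic. Each comparison held only the libraries of its 2 windows. DESeq2 1.42.0 was an alternative. Others were RLE factors, no filter, all 11 libraries, the replicate number as a block, TPM per exonic length or without mitochondrial genes, other detection thresholds and leaving out each library. The p-values measure the spread between these collections. Counting intervals are exact (95%), and like the floors they reflect counting error alone, because reads copied by PCR are not separate molecules. The fits were tested on simulated data, where 200 genes were changed 4-fold and 98% to 100% of them were recovered. Only genes with higher counts were changed, so the simulation does not cover members with few counts. Python 3.11.15, pandas 2.3.3, numpy 2.4.6, scipy 1.17.1 and matplotlib 3.10.9 were used.

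Members with a mean of at least 1 TPM in at least 1 window, and rpk, ppk11, ppk16, ppk19 and ppk28 for their known roles, are given by library, the others by counts and ranges. Of the lists, Nach is named, as are examples of genes called in both comparisons or high in TPM. Piezo is named for its rise between the narrow windows. It was not called between 2–4 h and 14–17 h (adjusted p = 0.069, edgeR). Genes that share bases with a member or lie next to it were named after their values were seen, as were ppk24, ppk8 and ppk9. The members and lists were chosen with earlier results of these data known. Of the 15 genes in each list, 1 did not match a symbol. No sequence is shown.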

Additional observations from a re-analysis of the deposited data

Results flagged for a closer look

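Among the 4 libraries at 14–17 h, 17 members were searched for a library far from the others, and chance gives such a library in about 1 of 20 groups. Replicate 3 had the lowest ppk, at 8.661 TPM, with the other libraries between 10.6 and 10.8. The same replicate was lowest at the ppk11 and ppk16 locus, at 0.1649 TPM for each, where the others lay between 0.220 and 0.228, and the pair counts as a single locus because its values are the same.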

How the results depend on the processing

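Of 490 fold changes of members recomputed under an alternative, 462 kept their direction and side of the threshold, 15 lost their call, 4 gained one, and 9, none of them called in either fit, changed sign. Those 9 concerned ppk28 between 2–4 h and 14–17 h, at 0.011 by DESeq2 and −0.63 to 0.37 when each library was left out, and changes between the narrow windows with each library left out, of rpk (−0.76 to 0.056), ppk5 (−0.76 to 0.24), ppk20 (−0.62 to 0.27), ppk22 (−0.66 to 0.32) and ppk28 (−0.26 to 0.75). With the replicate number as a block, 12 members were higher and 9 lower between 2–4 h and 14–17 h, and 6 higher and 0 lower between the narrow windows, so that only ppk29 lost its call. Libraries with the same number correlated between −0.054 and 0.111 in their deviations for the first comparison and at −0.030 for the second, so the numbers were not taken to pair the samples. Counting only members that overlap no other gene, an alternative chosen after seeing the data, left 5 lower between 2–4 h and 14–17 h. Leaving out each library gave 0 to 2 members lower between the narrow windows. With 10 counts for detection, 10 members were detected at 2–4 h and 17 at 17–17.5 h. A level of 2 TPM was reached by 4 members at 2–4 h, 4 at 14–14.5 h and 5 at 14–17 h, and a level of 0.5 TPM by 16 at 14–17 h. By the DESeq2 Wald test 3 of the sensory channel list were higher between the narrow windows. Of 161 levels recomputed, 53 moved by at least the SD between replicates, 25 of them among the 34 per exonic length. The rest of these 53 moved when mitochondrial genes were left out. Leaving out 1 library of a window cannot move its mean by that SD, so those recomputed levels were bound to stay. Of the levels that could move, most did.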
